A study of Rattus norvegicus with 24 samples.

Results

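Matrix metalloproteases, their tissue inhibitors and the plasminogen system were followed in heart muscle RNA of 24 rats. The 9 genes were Timp1, Timp2, Timp3, Timp4, Mmp2, Mmp3, Mmp9, Plau and Plaur, taken by name from every probe whose transcript accession matched one of them in the rat RefSeq gene table. They had 12 probes of the 18005 that carried a gene name, and 8 of the 9 genes passed the filter on dim probes, among 12894 genes tested of 15168 named. Rats of the Jiaji, Neiguan, Yanglingquan and Quchi groups had 7 days of acupuncture at that acupoint and then ischaemia-reperfusion injury (IRI), made by tying the left anterior descending coronary artery. Rats of the IRI group had the same ligation without acupuncture, and rats of the sham group are described in the labels as sham only. Each group held 4 rats, 2 female and 2 male, and each rat gave 1 single-colour Agilent array. The sources used here do not give the strain, the reperfusion time or the part of the ventricle sampled, and describe no group with acupuncture and no injury. Nothing in the labels says that the 4 arrays of a group came from separate cohorts, so p-values measure only the spread between these samples.

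Metalloproteases are secreted or membrane-bound enzymes that cut collagens, gelatin and other matrix proteins, and each Timp binds and blocks many of them. Plau, the urokinase-type plasminogen activator, is held at the cell surface by its receptor Plaur and converts plasminogen into plasmin, which dissolves fibrin, cuts matrix and can activate latent metalloproteases. In the injured heart these enzymes and inhibitors take part in the removal of damaged matrix, the entry of leukocytes and the building of the scar.

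Both members of the receptor and ligand pair that carry calls below are shown with the 250 bases before their RefSeq start site, on the GRCr8 build. The promoter table held 7 of the 9 members; Mmp2 and Mmp9 were not among them. The Plaur stretch is chr1:89181113-89181362 on the plus strand and the Plau stretch is chr15:3511988-3512237 on the minus strand, both written 5′ to 3′ in the direction of the gene. Capitals mark matches to the AP-1 letters TGANTCA or to the ETS letters AGGAAG, searched on both strands in windows of 300 bases (250 before and 50 after the start).
Plaur: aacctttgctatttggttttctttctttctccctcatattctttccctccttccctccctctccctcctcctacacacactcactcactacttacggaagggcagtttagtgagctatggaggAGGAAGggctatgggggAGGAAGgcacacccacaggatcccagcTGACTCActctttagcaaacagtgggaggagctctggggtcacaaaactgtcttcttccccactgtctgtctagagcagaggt
Plau: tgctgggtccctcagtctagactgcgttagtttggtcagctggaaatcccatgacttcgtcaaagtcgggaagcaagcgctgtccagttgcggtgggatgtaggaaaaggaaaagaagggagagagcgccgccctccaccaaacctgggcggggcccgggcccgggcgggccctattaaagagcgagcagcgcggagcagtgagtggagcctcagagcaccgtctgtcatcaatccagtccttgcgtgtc
Plaur held 1 AP-1 match, first base 83 bases before the start, and 2 ETS matches, 127 and 110 bases before it. Plau held neither, and Timp2 and Timp3 also held neither. Mmp3 held an AP-1 match 71 bases before its start and an ETS match 206 bases before it. Timp1 held 2 ETS matches, and Timp4 held 1 on the minus strand. Over the 33469 promoters of the same length in the table, 7.33% held the AP-1 letters and 34.5% the ETS letters. A match is a run of letters and was not tested as a binding site.

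Levels are log2 processed signal minus the 75th percentile of that array, so 0 is the array's own 75th percentile and each unit is a doubling. A level belongs to its probe and is compared between arrays, not between genes. A gene is called where its adjusted p (limma, Benjamini-Hochberg over the 12894 genes, group and sex in the model) was under 0.05. Differences are given with their standard error (SE). Probes well above background made up 80.9 to 84.2% of each array in Jiaji, 76.1 to 83.8% in Neiguan, 71.1 to 76.3% in Yanglingquan, 75.6 to 85.6% in Quchi, 81.1 to 88.7% in IRI and 82 to 88% in sham. Arrays of a group correlated at 0.976 to 0.992. The heart label held against its markers, since all 10 cardiomyocyte genes with a tested probe (Myh6, Tnnt2 and others) were well above background on all 24 arrays. Each group was scanned apart from the others except that Quchi was split over 2 scans, and no acupoint array shared a scan day with IRI or sham, so scan and group cannot be told apart. All acupoint comparisons share the 4 IRI or the 4 sham arrays. In these bulk samples fewer cells of a type and less RNA per cell cannot be told apart.

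Against sham, Plaur was the member that rose, in Jiaji and in Neiguan, and against IRI it was Timp4, in Yanglingquan. No comparison called more than 1 member. In IRI against sham 0 of 8 members were called, where 5.75% of all genes were, and 1 (Timp4) had an unadjusted p under 0.05, where 17.8% of all genes did. In Jiaji against sham 1 of 8 was called (24% of all genes), in Neiguan against sham 1 of 8 (19.9%), in Yanglingquan against sham 0 of 8 (13%) and in Quchi against sham 0 of 8 (21.1%). The members' counts at an unadjusted p under 0.05 were 0 in Yanglingquan against sham (28.7% of all genes) and 1, Timp1, in Quchi against sham (35.4%). Against IRI, 0 of 8 were called in Jiaji (10.2%), 0 in Neiguan (5.63%), 1 in Yanglingquan (12.1%) and 0 in Quchi (3.44%). At an unadjusted p under 0.05 these were 2 in Jiaji (23.5%), 4 in Neiguan (19.7%) and 0 in Quchi (19%). The moderated F test among the 4 acupoint groups called 1 member, Plau, where 39.1% of all genes passed. Set beside these shares, the counts are not a result about the members as a set.

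**Figure D1:**
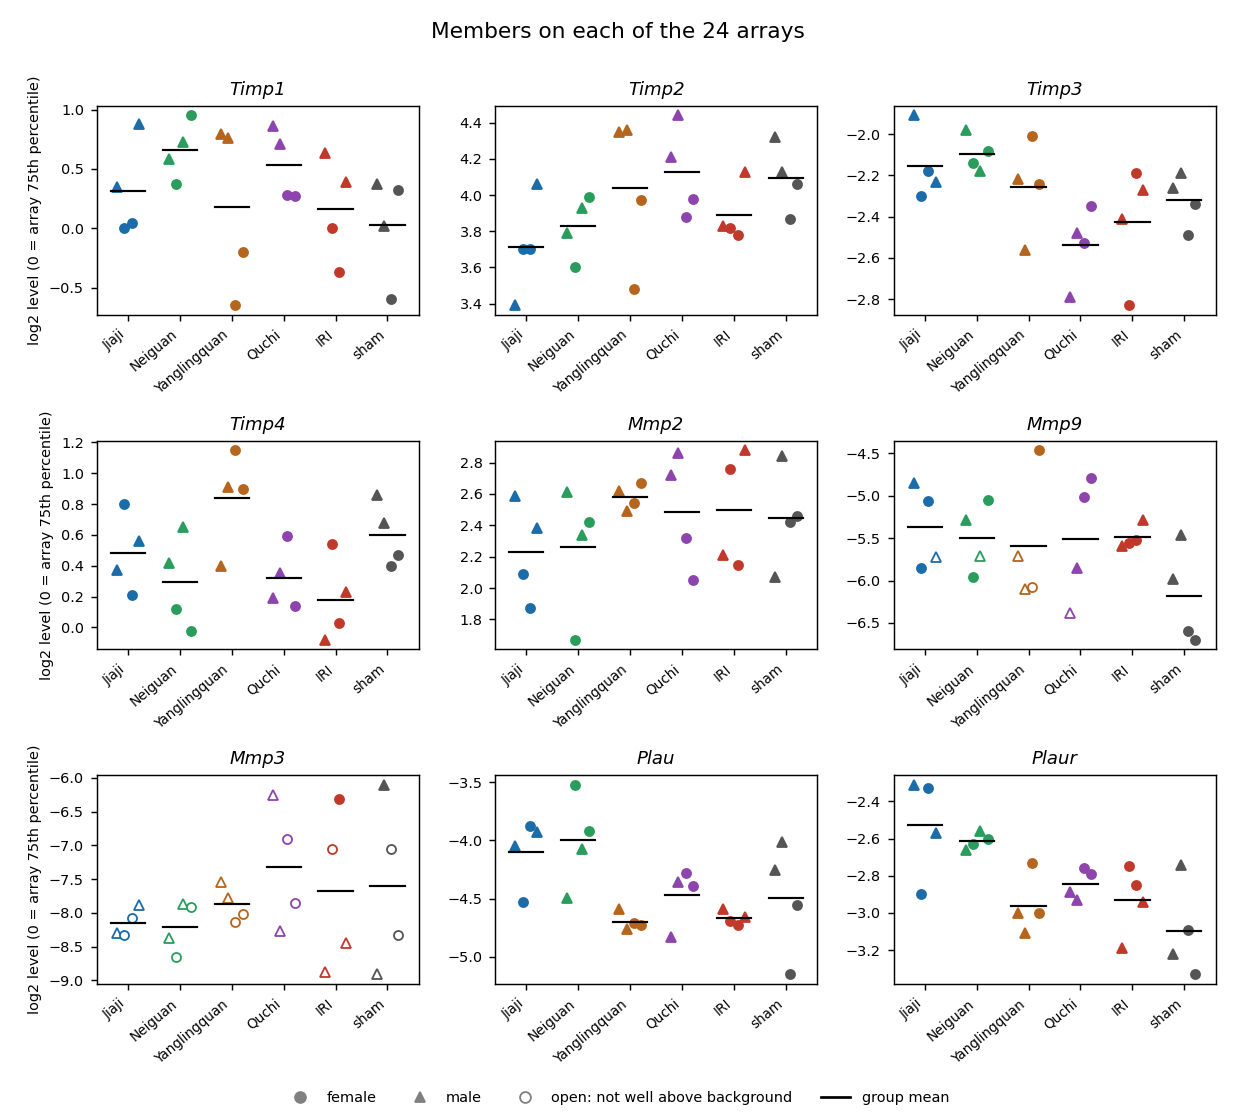
Log2 level of each member (vertical axis, 0 = the array's 75th percentile) on every array, by group, with a line at each group mean. Neiguan arrays of Plaur lie between -2.66 and -2.56, all above the sham arrays, and Mmp3 lies near background throughout.

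Timp1 is a secreted inhibitor of many metalloproteases and is induced in injured tissue. In replicates 1 to 4 its level was 0.58, 0.37, 0.73 and 0.95 in Neiguan rats, against 0.37, 0.02, -0.60 and 0.32 in sham rats. The groups did not overlap, although the lowest Neiguan array and the highest sham array round to the same value. Their difference was 0.63 ± 0.22 (SE), a 1.55-fold higher level, with an adjusted p of 0.0503 by limma, so it was not called. Among 14 other settings 10 called it, with adjusted p between 0.00996 and 0.142, and leaving out 1 array called it in 6 of 24 fits. Those 6 arrays were Neiguan replicate 1, sham replicate 4, Jiaji replicate 1 and Yanglingquan replicates 1, 2 and 3, with adjusted p of 0.0121 without sham replicate 4.

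Quchi rats had Timp1 levels of 0.86, 0.71, 0.28 and 0.27, and Jiaji rats 0.35, 0.00, 0.04 and 0.88. Yanglingquan rats had the widest spread, with 0.79, 0.76, -0.65 and -0.20, and IRI rats had 0.63, 0.00, -0.37 and 0.39. These 4 groups overlapped one another and sham. Quchi against sham differed by 0.50 ± 0.22 (adjusted p = 0.11), which became 0.70 (adjusted p = 0.0313) without sham replicate 4. IRI against sham differed by 0.13 ± 0.22, with a 95% interval of -0.33 to 0.60. Against IRI, the 4 differences were 0.16 in Jiaji, 0.50 in Neiguan, 0.01 in Yanglingquan and 0.37 in Quchi, and none was called. In the order of means, Neiguan, Quchi, Jiaji, Yanglingquan, IRI and sham, each group overlapped its neighbour.

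Timp2, which inhibits metalloproteases and also helps Mmp14 activate Mmp2, averaged 3.71 ± 0.27 in Jiaji rats and 4.10 ± 0.18 in sham rats (SD, n = 4 each). The other group means were 3.83 in Neiguan, 4.04 in Yanglingquan, 4.13 in Quchi and 3.89 in IRI, and neighbours in the order of means overlapped. Jiaji against sham differed by -0.38 ± 0.15 (adjusted p = 0.0766), and this was the only Timp2 comparison with an unadjusted p under 0.05 outside the sexes. It was called under 5 of 14 other settings. With quantile normalization the difference was -0.35 (adjusted p = 0.036) while the median of all genes was -0.17, and with median scaling it was -0.66 (adjusted p = 0.00658) while the median of all genes was -0.36. Without Yanglingquan replicate 3 it was -0.38 (adjusted p = 0.0442).

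Timp3, the matrix-bound inhibitor, lay between -2.18 and -1.98 in Neiguan rats and between -2.83 and -2.19 in IRI rats. These groups did not overlap, and Neiguan did not overlap sham (-2.49 to -2.19) either. The difference was 0.33 ± 0.14 against IRI (adjusted p = 0.202) and 0.23 ± 0.14 against sham (adjusted p = 0.266), so neither was called. Timp3 averaged -2.54 in Quchi rats, the lowest group mean, and the F test among acupoint groups gave 3.75 (adjusted p = 0.0633), called only without IRI replicate 2, Quchi replicate 4 or Yanglingquan replicate 2 (adjusted p 0.0323 to 0.0456) among the fits that left out 1 array.

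Timp4 is the inhibitor with its highest expression in the heart. Its level was 0.40, 0.91, 1.15 and 0.90 in Yanglingquan rats, against -0.08, 0.54, 0.03 and 0.23 in IRI rats. Yanglingquan replicates 2, 3 and 4 stood above every IRI array, and replicate 1 lay inside the IRI range. The difference of 0.66 ± 0.19 (95% interval 0.27 to 1.05) was a 1.58-fold rise with an adjusted p of 0.0257 by limma. The second Timp4 probe gave 0.66 ± 0.19 as well (adjusted p = 0.0236 over all passing probes), and both probes correlated at 0.95 over the 24 arrays.

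The Timp4 call was lost without IRI replicate 1 (0.56, adjusted p = 0.0889), IRI replicate 3 (0.61, 0.074), or Yanglingquan replicate 2 (0.64, 0.0632), 3 (0.55, 0.0838) or 4 (0.64, 0.0572), and in a fit of only these 2 groups (0.0573). Of 10 cardiomyocyte markers 7 rose in Yanglingquan against IRI, where 12.1% of all genes were called. Their median difference was 0.56, where the median of all genes was -0.04. In Yanglingquan against sham Timp4 was not called (0.24, adjusted p = 0.423). There 6 of 10 markers rose (13% of all genes were called), with a median difference of 0.51. Their mean level ran from 6.17 to 6.53 over Yanglingquan arrays and from 5.79 to 5.95 over IRI arrays, and their part in the Timp4 difference was not tested.

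Sham rats had Timp4 levels of 0.86, 0.68, 0.40 and 0.47. IRI against sham differed by -0.42 ± 0.19 with overlapping groups (adjusted p = 0.236), and Yanglingquan against sham by 0.24 ± 0.19 (adjusted p = 0.423). Jiaji rats had 0.37, 0.80, 0.21 and 0.56, Neiguan rats 0.42, 0.12, 0.65 and -0.02, and Quchi rats 0.19, 0.35, 0.59 and 0.14. All 3 of these groups overlapped both IRI and sham. The F test among the acupoint groups gave 3.65 (adjusted p = 0.0676), and called Timp4 without Neiguan replicate 3 (4.67, 0.0388) or Yanglingquan replicate 1 (5.94, 0.0205). The second Timp4 probe gave an F of 4.53, under the threshold (adjusted p = 0.0357 over all passing probes). It gave -0.20 ± 0.19 for IRI against sham (0.625) and 0.46 ± 0.19 for Yanglingquan against sham (0.101), so the sizes depended on the probe.

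Mmp2, gelatinase A, is made by fibroblasts and cuts denatured collagen. No comparison between groups called it. Its group means ran from 2.23 ± 0.32 in Jiaji to 2.58 ± 0.08 in Yanglingquan (SD, n = 4 each), with 2.50 ± 0.37 in IRI and 2.45 ± 0.31 in sham. IRI against sham differed by 0.05 ± 0.20, with a 95% interval of -0.37 to 0.48. The second Mmp2 probe correlated with it at 0.62 over the 24 arrays and gave -0.67 ± 0.26 for Quchi against sham (adjusted p = 0.0629 over all passing probes), where the brighter probe gave 0.04 ± 0.20.

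Mmp9, gelatinase B, is stored in neutrophil granules. It was dim: well above background on 3 of 4 arrays in each of Jiaji, Neiguan and Quchi, on 1 of 4 in Yanglingquan, and on 4 of 4 in each of IRI and sham. IRI rats lay between -5.59 and -5.29 and sham rats between -6.70 and -5.46. The groups overlapped, and the difference of 0.69 ± 0.38 (95% interval -0.10 to 1.48) had an adjusted p of 0.36. Jiaji against sham was 0.81 ± 0.38 (adjusted p = 0.123), and acupoint groups differed from IRI by -0.10 to 0.12. Mmp3, stromelysin 1, was well above background on 2 of 24 arrays, 1 IRI and 1 sham, and was not tested.

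Plau had levels of -4.05, -4.53, -3.88 and -3.93 in Jiaji rats and -4.49, -3.52, -4.07 and -3.92 in Neiguan rats, against -4.59, -4.69, -4.73 and -4.66 in IRI rats. All Jiaji and Neiguan arrays stood above all IRI arrays. The differences were 0.57 ± 0.21 in Jiaji (adjusted p = 0.101) and 0.67 ± 0.21 in Neiguan (adjusted p = 0.0747), so neither was called. Groups without overlap were found for 1 of 8 members in Jiaji against IRI (15.9% of all genes) and for 3 of 8, Timp3, Plau and Plaur, in Neiguan against IRI (15.3%). Against sham the differences were 0.40 ± 0.21 in Jiaji (adjusted p = 0.185) and 0.49 ± 0.21 in Neiguan (0.106), the second being called without Neiguan replicate 1 (0.67, 0.0426) or sham replicate 2 (0.66, 0.0483). Against IRI, normexp background correction gave 0.12 for Jiaji and 0.29 for Neiguan, and leaving out Jiaji replicate 2 (0.72, adjusted p = 0.0479), Neiguan replicate 1 (0.85, 0.0288) or sham replicate 3 (0.67 for Neiguan, 0.0362) made a call.

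Yanglingquan rats had Plau levels of -4.59, -4.76, -4.71 and -4.73, and Quchi rats -4.83, -4.36, -4.28 and -4.39. Sham rats were more spread, with -4.25, -4.01, -5.15 and -4.55, and overlapped every other group. All Yanglingquan arrays lay below all Jiaji and Neiguan arrays. The F test among acupoint groups was 4.62 (adjusted p = 0.0368), and it called Plau. That call held in 9 of 14 other settings. It was lost with quantile normalization (2.34, adjusted p = 0.181), median scaling (2.68, 0.108), normexp (2.45, 0.168), the authors' processed values (2.35, 0.183) and the replicate block (4.25, 0.0512). It held in 14 of 24 fits that left out 1 array, and was lost without Jiaji replicate 1, 3 or 4, Neiguan replicate 2 or 4, Quchi replicate 2 or any Yanglingquan replicate, with 3.62 (adjusted p = 0.0753) as its lowest value.

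Plaur, the urokinase receptor, is carried by monocytes, neutrophils and migrating cells. Its level was -2.31, -2.90, -2.33 and -2.57 in Jiaji rats and -2.66, -2.63, -2.56 and -2.60 in Neiguan rats, against -3.22, -2.74, -3.09 and -3.33 in sham rats. Jiaji replicate 2 fell inside the sham range, and all other Jiaji and all Neiguan arrays stood above every sham array. Jiaji against sham differed by 0.57 ± 0.14 (95% interval 0.28 to 0.86), a 1.48-fold rise with an adjusted p of 0.00579. Neiguan against sham differed by 0.49 ± 0.14 (0.19 to 0.78), a 1.40-fold rise with an adjusted p of 0.02. In Neiguan against sham, groups without overlap were found for 3 of 8 members, Timp1, Timp3 and Plaur, and for 27.1% of all genes.

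The Plaur rise in Jiaji held in all 24 fits that left out 1 array and in 8 of 14 other settings. It missed the threshold with quantile normalization (0.30, adjusted p = 0.0618), median scaling (0.29, 0.0554), normexp (0.19, 0.098), the authors' processed values (0.30, 0.0631), the mean of both probes (0.43, 0.102) and a fit of these 2 groups alone (0.0525). Relative to the median over all genes in the same setting, the Plaur difference was 0.66 in the main setting, 0.47 with quantile normalization and 0.32 with normexp. The rise in Neiguan held in 13 of 14 settings, with normexp the exception (0.21, 0.083), and was lost without Neiguan replicate 3 (0.46, 0.0535), sham replicate 1 (0.45, 0.0521) or sham replicate 4 (0.40, 0.0709). The second Plaur probe gave 0.29 ± 0.26 in Jiaji (adjusted p = 0.435), where Jiaji replicate 2 read -4.34, and 0.60 ± 0.26 in Neiguan (adjusted p = 0.102), and it correlated with the brighter probe at 0.63.

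Plaur was -3.00, -3.11, -2.73 and -3.00 in Yanglingquan rats, -2.89, -2.93, -2.76 and -2.79 in Quchi rats and -3.19, -2.75, -2.85 and -2.94 in IRI rats. These 3 groups overlapped one another and sham. Against IRI, Jiaji differed by 0.41 ± 0.14 (adjusted p = 0.074), called without Jiaji replicate 2 (0.54, 0.0139) or sham replicate 2 (0.41, 0.0457), and Neiguan by 0.32 ± 0.14 (adjusted p = 0.21, no overlap). In the order of means the neighbouring groups Neiguan and Quchi did not overlap, and all other neighbours did. The F test among acupoint groups gave 4.05 (adjusted p = 0.0523), and 5 of 24 fits that left out 1 array called Plaur, those without IRI replicate 1, Jiaji replicate 2, Yanglingquan replicate 3 or sham replicate 2 or 4 (adjusted p 0.0104 to 0.0485). Plaur was also called over spots, over every passing probe, without the sex term and with the slide block. F was only 0.65 to 1.16 with quantile normalization, median scaling, normexp, the authors' values and the mean of probes. The second Plaur probe gave an F of 0.66 (adjusted p = 0.637 over all passing probes). Against IRI that probe differed by 0.14 ± 0.26 in Jiaji (0.804) and 0.45 ± 0.26 in Neiguan (0.333).

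Of 11 neutrophil markers 4 rose in Jiaji against sham (median difference 0.63, median of all genes -0.09), 5 in Neiguan (0.90 and -0.10) and 1 in IRI (0.82 and -0.03). In Quchi against sham, where Plaur was not called (0.25, adjusted p = 0.206), 4 of 11 rose (0.77 and 0.04), and in Yanglingquan against sham, where it was not called either (0.13, 0.563), 2 rose and 1 fell (0.39 and -0.06). Of all genes 24% were called in Jiaji, 19.9% in Neiguan, 13% in Yanglingquan, 21.1% in Quchi and 5.75% in IRI against sham. The mean level of the neutrophil markers was -3.01 to -2.22 over Jiaji arrays, -3.14 to -2.16 over Neiguan arrays, -3.24 to -2.61 over Yanglingquan arrays, -2.88 to -2.27 over Quchi arrays, -2.76 to -2.49 over IRI arrays and -3.68 to -2.70 over sham arrays. 7 of the 11 were well above background on all arrays, S100a8 and S100a9 among them, and Ngp was so on 16 of 24. Of 11 macrophage markers 1 rose in each of Jiaji, Neiguan and Quchi against sham, and 2 fell in Yanglingquan. In IRI against sham 0 were called, and 1 had an unadjusted p under 0.05 (limma), where 17.8% of all genes did. The median difference of these markers was -0.23 in Jiaji, 0.17 in Neiguan, -0.07 in Quchi, -0.22 in Yanglingquan and -0.21 in IRI. The part of these cells in the Plaur differences was not tested.

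**Figure D2:**
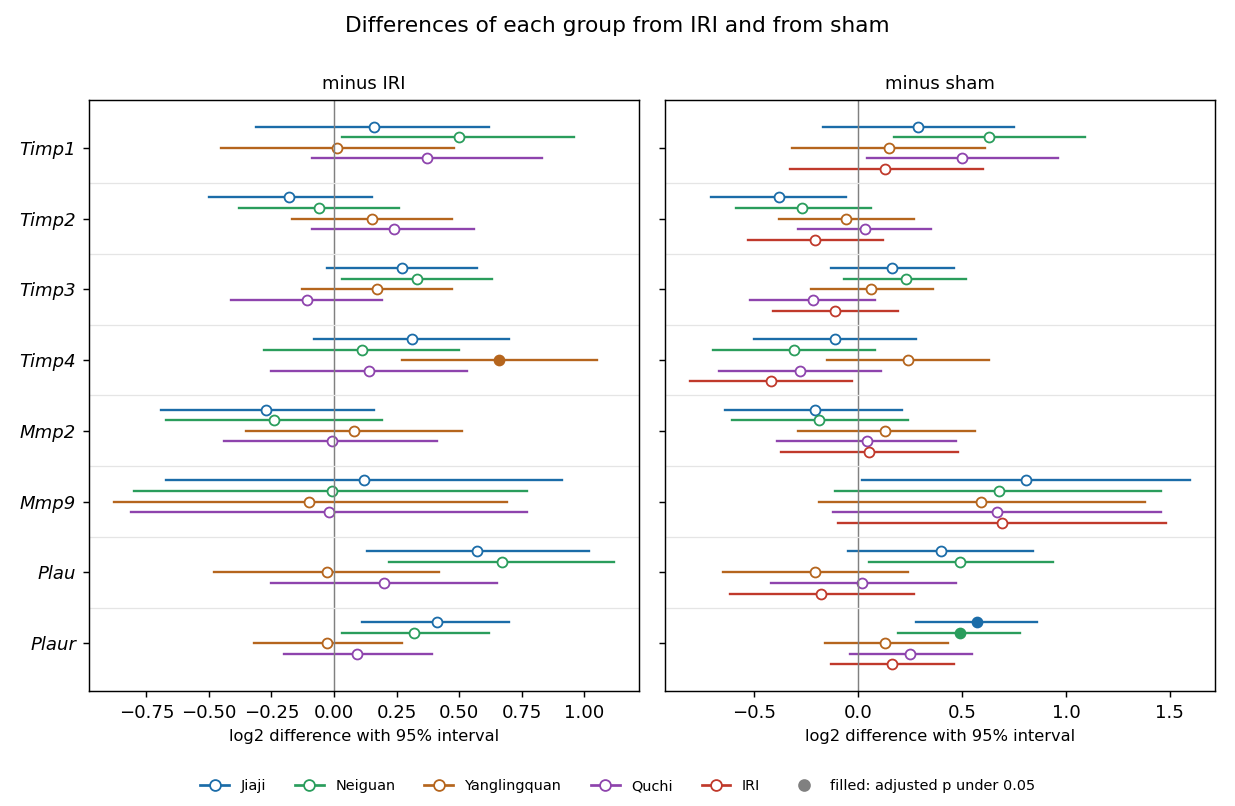
Log2 difference of each tested member (points) with its 95% interval (lines) in each comparison, acupoint or IRI over IRI or sham. The intervals of Plaur in Jiaji (0.28 to 0.86) and Neiguan (0.19 to 0.78) against sham, and of Timp4 in Yanglingquan against IRI (0.27 to 1.05), lie above 0 and belong to called differences.

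Over the 8 tested members the median difference was -0.03 in IRI against sham, where that of all genes was -0.03 too. Against sham it was 0.23 in Jiaji (all genes -0.09), 0.36 in Neiguan (-0.10), 0.13 in Yanglingquan (-0.06) and 0.04 in Quchi (0.04). Against IRI it was 0.21 in Jiaji (-0.01), 0.22 in Neiguan (-0.05), 0.05 in Yanglingquan (-0.04) and 0.11 in Quchi (0.02). Over the 24 arrays Plau and Plaur correlated at 0.62, and at 0.35 after group means were taken out. Timp1 and Timp2 correlated at 0.50 over arrays and at 0.79 within groups, and Timp2 and Plaur at -0.55 and -0.39. These are descriptions over arrays that share groups, scans and sex.

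Timp1 was lower in females, short of the threshold. It averaged 0.03 ± 0.45 in 12 females and 0.59 ± 0.26 in 12 males (SD). By limma the difference was -0.55 ± 0.13 (adjusted p = 0.0696), a 1.47-fold lower level. The female mean was lower in 5 of 6 groups, and both females lay below both males in 4 of 6. Neiguan was the exception, with 0.66 in females and 0.65 in males. Without Neiguan replicate 4 (-0.62, adjusted p = 0.0246) or sham replicate 4 (-0.62, 0.021), both female, the difference was called. Among the other settings only trend and robust called it (0.0442). The adjusted p was 0.0991 with no filter, 0.101 with median scaling and 0.438 with the replicate block, where the difference was -0.49.

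Timp2 differed by -0.26 ± 0.09 in females against males (adjusted p = 0.24), with a lower female mean in 6 of 6 groups, and Mmp2 by -0.26 ± 0.12 (adjusted p = 0.357), in 5 of 6. None of the members was called between the sexes, where 0.209% of all genes were, and 3 of 8 had an unadjusted p under 0.05, where 12.5% of all genes did. Of 19 matrix substrates of these proteases, 2 fell in females. Col1a1, a chain of type I collagen, averaged 2.36 ± 0.54 in females and 3.32 ± 0.56 in males (SD, n = 12 each), and fell by 0.96 on the log2 scale (SE 0.16, adjusted p = 0.0109). Col3a1, a chain of type III collagen, fell by 0.67 on the log2 scale (adjusted p = 0.0109). Adamts15, a proteoglycan-cutting protease, also fell by 0.56 (adjusted p = 0.0109). Col1a1 and Col3a1 also stand among the 9 fibroblast markers, of which those 2 fell in females and 6 had an unadjusted p under 0.05. In the test of whether the injury difference depends on sex, 0 of 12890 genes were called (0%), and 0 members had an unadjusted p under 0.05 (limma). With 2 rats of each sex in a group this does not show that the sexes respond alike: 29 genes, none of them a member, were called with no filter, and up to 70 without 1 array.

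**Figure D3:**
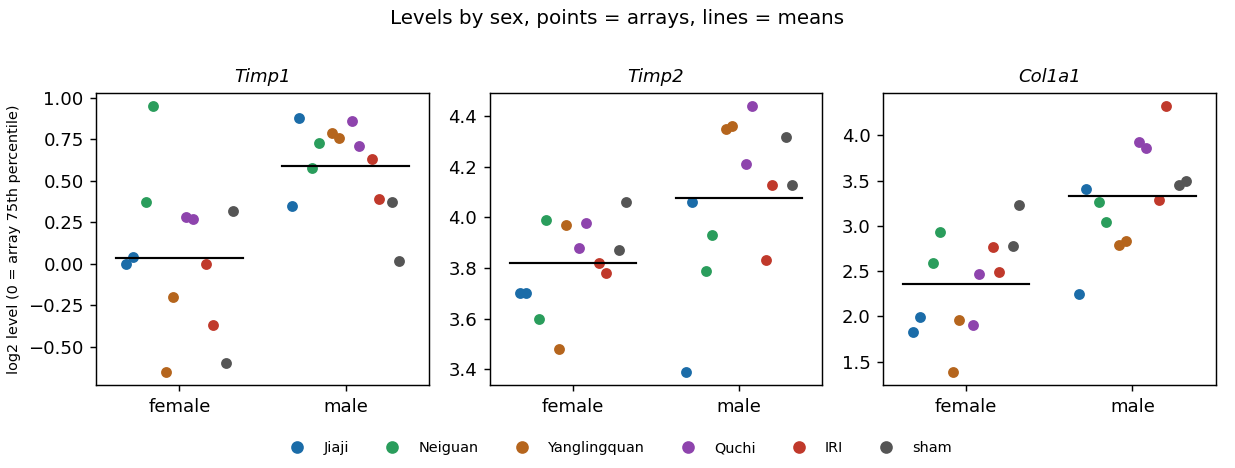
Log2 level (vertical axis, 0 = the array's 75th percentile) of Timp1, Timp2 and Col1a1 in 12 female and 12 male rats, coloured by group, with a line at each mean. Timp1 means are 0.03 in females and 0.59 in males, and 1 female Neiguan array, at 0.95, lies above every male array.

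The RNA signal of the plasminogen gene rose against sham in Jiaji, Neiguan and Yanglingquan, and in IRI by a call that depended on single arrays. Plg, whose product is the precursor of plasmin, had levels of 0.81, 0.72, 0.86 and 0.97 in Jiaji rats and 1.46, 0.74, 1.14 and 0.95 in Neiguan rats. Yanglingquan rats had 0.70, 0.64, 0.39 and 0.31 and Quchi rats 0.11, -0.12, -0.48 and 0.20. IRI rats had 0.27, -0.21, 0.14 and 0.59 and sham rats -0.09, -0.37, -0.45 and -0.35. All Jiaji and Neiguan arrays stood above all IRI and sham arrays, and Yanglingquan arrays stood above all sham arrays.

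Against sham, Plg rose by 1.39 ± 0.14 in Neiguan (2.62-fold, adjusted p = 6.57e-07), by 1.16 ± 0.14 in Jiaji (2.23-fold, adjusted p = 6.02e-06) and by 0.82 ± 0.14 in Yanglingquan (1.77-fold, adjusted p = 0.000848). Quchi differed from sham by 0.24 ± 0.14 (adjusted p = 0.236). Against IRI it rose by 0.88 ± 0.14 in Neiguan (adjusted p = 0.000512) and by 0.64 ± 0.14 in Jiaji (adjusted p = 0.00564). These 5 calls held in all 24 fits that left out 1 array. IRI against sham differed by 0.51 ± 0.14 (adjusted p = 0.037), and this call was lost without IRI replicate 1, 3 or 4 or any sham replicate (adjusted p 0.0549 to 0.132). The F test among acupoint groups gave 24.18 for Plg (adjusted p = 5.49e-05).

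The share of all genes called was 24% in Jiaji, 19.9% in Neiguan, 13% in Yanglingquan, 21.1% in Quchi and 5.75% in IRI against sham, and 10.2% in Jiaji, 5.63% in Neiguan, 12.1% in Yanglingquan and 3.44% in Quchi against IRI. Of the 16 other plasminogen system genes tested, Plg included, 5 rose in Jiaji, 2 rose and 1 fell in Neiguan, 4 rose and 1 fell in Yanglingquan and 3 rose and 1 fell in Quchi against sham. Against IRI 1 rose in Jiaji and 1 in Neiguan, Plg in both, and 0 were called in Yanglingquan and Quchi (2 and 0 at an unadjusted p under 0.05, limma). Over the other settings the list's calls against sham ran from 3 to 9 in Jiaji, of which 0 to 4 were lower, from 2 to 5 in Neiguan, and from 2 to 6 in both Yanglingquan and Quchi.

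Plat, the tissue-type activator, rose by 0.54 ± 0.13 in Yanglingquan against sham (adjusted p = 0.0101) and by 0.39 ± 0.13 in Quchi (0.0375). Serpine2, which blocks thrombin and urokinase, fell against sham by 0.77 on the log2 scale in Neiguan (adjusted p = 0.0148), 0.72 in Yanglingquan (0.0312) and 0.71 in Quchi (0.0228). Serpini1, an inhibitor of Plat, rose against sham by 1.07 ± 0.23 in Jiaji (0.0021) and 0.90 ± 0.23 in Neiguan (0.00984). F12, coagulation factor XII, rose by 0.80 ± 0.18 in Quchi (0.00322). Its mean was -3.77 in Jiaji, -3.86 in Neiguan, -3.76 in Yanglingquan and -3.77 in IRI, against -4.32 in sham. The list's median difference lay between 0.06 and 0.19 against sham, where the median of all genes lay between -0.10 and 0.04.

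**Figure D4:**
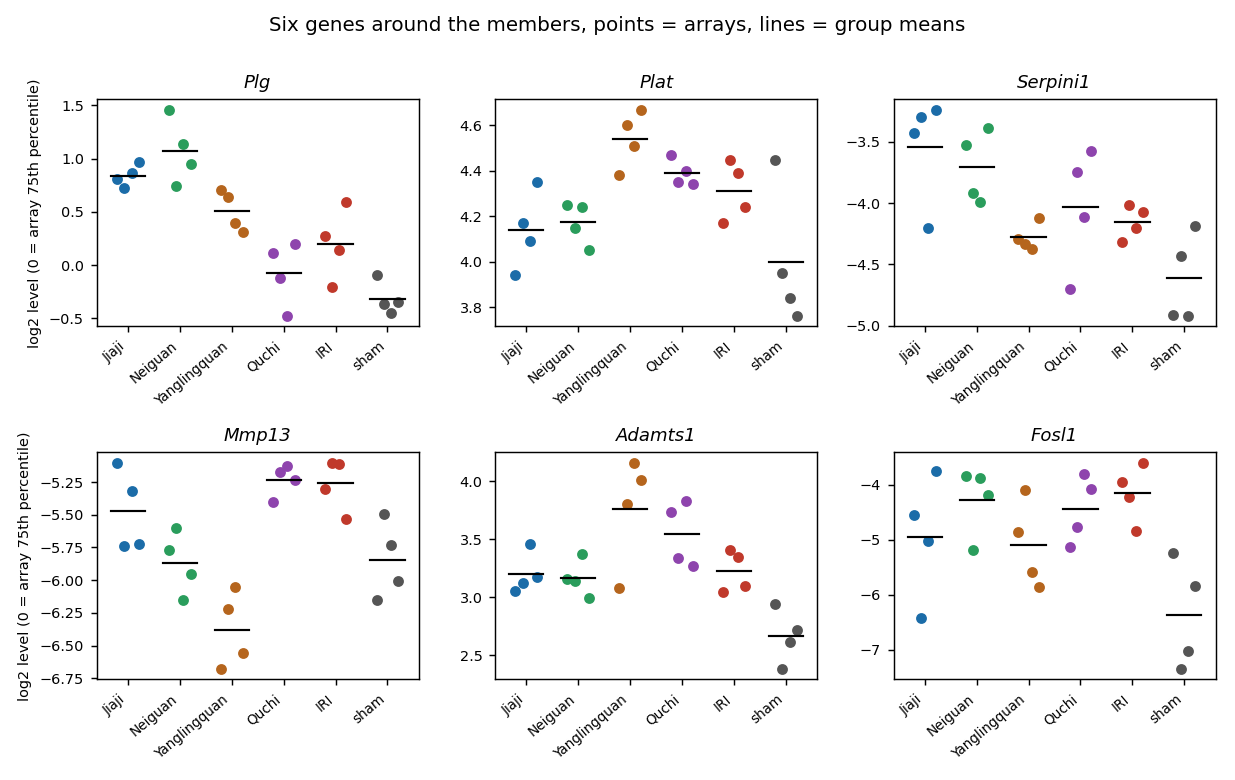
Log2 level (vertical axes, 0 = the array's 75th percentile) of Plg, Plat, Serpini1, Mmp13, Adamts1 and Fosl1 on every array, by group, with lines at group means. All Jiaji and Neiguan arrays of Plg stand above all IRI and sham arrays, and the Mmp13 points of Yanglingquan are not well above background.

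Among 24 other metalloproteases 0 were called in IRI against sham, where 5.75% of all genes were. At an unadjusted p under 0.05 (limma) there were 4, where 17.8% of all genes passed. Against sham 3 rose and 1 fell in Jiaji (24% of all genes were called) and 2 rose in Neiguan (19.9%). Also against sham, 2 rose and 3 fell in Yanglingquan (13%), and 3 rose and 2 fell in Quchi (21.1%). Over the other settings the calls ran from 3 to 10 in Jiaji (0 to 8 lower), 0 to 8 in Neiguan (0 to 4 lower), 2 to 7 in Yanglingquan (0 to 4 lower), 4 to 8 in Quchi (1 to 3 lower) and 0 to 3 in IRI (0 lower), so the balance of directions in Jiaji and Neiguan depended on the setting. Adamts1, which cuts versican and aggrecan, rose against sham by 1.1 ± 0.18 in Yanglingquan (adjusted p = 0.000612) and 0.88 ± 0.18 in Quchi (0.00241), and both calls held without any 1 array. Its rise of 0.54 ± 0.18 in Jiaji (0.038) was lost without Jiaji replicate 1, 3 or 4 or sham replicate 2, 3 or 4. It differed by 0.56 ± 0.18 in IRI (0.0817) and 0.50 ± 0.18 in Neiguan (0.0591). Adamts4, another aggrecan-cutting protease, rose by 1.22 ± 0.20 in Jiaji against sham (0.000136). Adamts9 rose by 0.84 ± 0.23 in Quchi against sham (0.0132).

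Mmp1, an interstitial collagenase, rose against sham by 1.39 ± 0.36 in Jiaji (adjusted p = 0.00746) and 1.23 ± 0.36 in Neiguan (0.0204), and was well above background on 2 of 4 sham arrays. Adam19, a membrane sheddase, fell by 0.57 in Jiaji (0.0288) and 0.75 in Quchi (0.0128) against IRI on the log2 scale. Mmp13, collagenase 3, was well above background on 0 of 4 Yanglingquan and 4 of 4 IRI arrays. By the bound described below it was 1.39-fold lower in Yanglingquan than in IRI (adjusted p = 0.000453). It is also 1 of the 3 counted as fallen in Yanglingquan against sham (adjusted p = 0.0497), where the bound gives no fold and the direction is not settled. Mmp19, also well above background on 0 of 4 Yanglingquan arrays, was by the same bound 1.13-fold lower there than in IRI (0.0122) and 1.29-fold lower than in sham (0.00399). Mmp12, macrophage elastase, passed the filter on dim probes only through sham, its highest group, with 4 of 4 arrays well above background. It was so on 2 of 4 arrays in each of Jiaji, Neiguan, Quchi and IRI and on 0 of 4 in Yanglingquan. Its fall in Yanglingquan against sham is in the count above but is not read as a result. These bounds set the mean of the brighter group against, on each Yanglingquan array, the higher of the lowest signal well above background and the probe's own. A probe not well above background can still hold more signal than that lowest one. The folds are therefore not strict minimums and do not settle a direction by themselves. The adjusted p-values beside them are those of limma on the measured values, and the bounds themselves were not tested. Mmp14, the membrane protease that activates Mmp2, and Mmp8, neutrophil collagenase, were not called in any comparison. Their differences from sham over the 5 injured groups ran from -0.49 to -0.09 for Mmp14 and from 0.49 to 1.47 for Mmp8. Reck, a membrane inhibitor of metalloproteases, had no named probe.

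Of 12 protease regulators, 2 rose and 2 fell in Jiaji against sham (24% of all genes were called) and 2 rose in Neiguan (19.9%). Also against sham, 1 rose in IRI (5.75%) and 1 fell in Yanglingquan (13%). Against IRI 1 rose in Yanglingquan (12.1%). In Quchi against sham 0 were called (21.1%), and 1 had an unadjusted p under 0.05 (limma), where 35.4% of all genes did. Over the other settings the calls in Jiaji against sham ran from 1 to 5. Tfpi2, which inhibits plasmin, rose against sham by 1.18 ± 0.31 in Neiguan (adjusted p = 0.0115) and by 1.15 ± 0.31 in IRI (0.0334). It was also called in Jiaji, with a mean of -1.35 against -2.24 in sham. That call held in 7 of 14 other settings and 9 of 24 fits that left out 1 array. Thbs1, which binds proteases and activates Tgfb1, rose against sham by 1.04 ± 0.32 in Neiguan (0.0267) and 1.02 ± 0.32 in Jiaji (0.0241). Cst3, the secreted cathepsin inhibitor cystatin C, rose by 0.48 ± 0.12 in Yanglingquan against IRI (0.0159).

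Among 19 matrix substrates 0 were called in IRI against sham, where 5.75% of all genes were. In that comparison 0 had an unadjusted p under 0.05 (limma), where 17.8% of all genes did. In Jiaji 2 fell against IRI, Eln (elastin) by 1.05 on the log2 scale (adjusted p = 0.0146) and Col4a1 by 0.56 (0.0425). Of all genes 10.2% were called in Jiaji against IRI. The list's median in that comparison was -0.34, where the median of all genes was -0.01. In Jiaji against sham 3 fell, where 24% of all genes were called. Over the other settings, 0 to 7 of the list fell in Jiaji against IRI and 0 to 12 in Jiaji against sham, and 0 rose in either. Col1a1 fell by 0.97 in Yanglingquan against IRI (0.0272), and against sham by 1.0 in Yanglingquan (0.0238) and 0.87 in Jiaji (0.0276). Ccn2, a matrix-associated growth factor, rose by 1.46 ± 0.34 in Quchi against sham (0.00469).

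Of 16 genes known to induce protease genes, 3 rose in IRI against sham (5.75% of all genes were called) and 6 in Jiaji (24%). Also against sham, 3 rose in Neiguan (19.9%), 2 in Yanglingquan (13%) and 4 in Quchi, where 1 fell (21.1%). Over the other settings the calls ran from 1 to 4 in IRI, 3 to 8 in Jiaji, 3 to 8 in Neiguan, 0 to 8 in Yanglingquan and 3 to 6 in Quchi. Fosl1, an AP-1 subunit, rose by 2.21 ± 0.49 in IRI (adjusted p = 0.00901) and 2.09 ± 0.49 in Neiguan (0.00491) against sham, and was well above background on 2 of 4 sham arrays. Its mean also lay above the sham mean of -6.37 in Quchi (-4.45), Jiaji (-4.94) and Yanglingquan (-5.1). Il6, an inflammatory cytokine, rose against sham by 2.23 ± 0.54 in Jiaji (0.00491), 2.51 ± 0.54 in Neiguan (0.00241), 1.76 ± 0.54 in Yanglingquan (0.0367), 2.22 ± 0.54 in Quchi (0.00655) and 2.14 ± 0.54 in IRI (0.0213). Osm, a cytokine of the same family, rose against sham by 0.58 ± 0.13 in Jiaji (0.003) and 0.41 ± 0.13 in Neiguan (0.0353). Hbegf, a ligand of the EGF receptor, rose in Jiaji by 0.73 ± 0.19 against sham (0.00829) and 0.65 ± 0.19 against IRI (0.035). Ets1, a transcription factor of protease genes, fell in Quchi by 1.60 against sham (0.00286) and 1.38 against IRI (0.0295) on the log2 scale. Of the 83 calls that the naming rule gave over the 5 lists, 41 held in every fit that left out 1 array, 28 in every other setting and 24 in both. Osm in Jiaji and Plat in Yanglingquan against sham, which held without any 1 array, were called in 10 of 14 other settings. Among the calls described here that did not hold without every array in turn were Serpine2, Thbs1, Cst3, Eln, Col4a1, Adam19 against IRI, Col1a1 between treatment groups, Tfpi2 and Il6 in IRI, Mmp1 and Osm in Neiguan, Il6 in Yanglingquan, and Hbegf in Jiaji and Ets1 in Quchi against IRI.

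The genes whose level over the 24 arrays was most like each member were found by Pearson correlation among all tested genes that are no members. For Plau these were Mn1 (0.82), Il10 (0.79) and Stxbp2 (0.78), and for Plaur Spaca3 (0.85), Shisa6 (0.84) and Bmp8a (0.83). For Timp1 they were Ptx3, C3h9orf50 and Mthfd2 (0.85 each), and for Timp4 Fn3k (0.79), Acaa1a (0.78) and Wdr45 (0.75). For Timp2 they were C10h5orf15, Ift27 and Map2k2 (0.90 each), and for Timp3 Rbm33 (0.86), Fance and Stx5 (0.85 each). For Mmp2 they were Oaf (0.79), Aoc3 (0.77) and Tgfb3 (0.76), and for Mmp9 Or12k7b (0.78), Snx29 (0.77) and Ncmap (0.76). The arrays share groups, scans and sex, so these are descriptions.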

How the data were processed

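Myocardial RNA of 24 rats was measured on 1-colour Agilent arrays. The scanner files hold spot intensity values from Feature Extraction 11.0.1.1 after its background subtraction and detrending, per the file headers. Version 10.7.3.1 stands in the submitters' processing notes. Spot flags (other values, 0 or 1) are those of the file headers. The authors deposited a table of log2 values for the same arrays, with equal quantiles in every column (median 7.21) and uncentred; the sources used here do not name its tool, and it served as an alternative.

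Control spots (1377 per array) and 8733 outlier spots were left out and spots of a probe averaged, which gave 30367 probes. RefSeq accessions named 18005 (59.3%). The main values were log2 processed signal minus each array's 75th percentile over probes. The percentile was first taken over spots and was changed to probes after results under both had been seen; over spots, Timp1 in Neiguan against sham (0.68, adjusted p = 0.0337 by limma) and Plaur among acupoint groups (F 5.04, adjusted p = 0.0309) were called as well. A probe passed (25149 did) if some group had it well above background on its 4 arrays, and the brightest passing probe stood for its gene. R 4.3.3 with limma 3.58.1 (lmFit, eBayes, two-sided) was fitted to all 24 arrays with group and sex (17 residual degrees of freedom). In data simulated for IRI against sham over 12663 genes, 36% of 50 genes changed by 0.5 log2 were called, 68% of those changed by 1 and 98% of those changed by 2. The simulated noise was independent between genes, with no group differences beyond those set. It gave 145 called genes, where the real comparison gave 742. The adjusted p depends on that number, so these rates are not the power of the comparisons reported. Beside the members and the panel Plat, Mmp8, Mmp14, Adamts1 and Reck (1 further gene is not reported here), up to 3 called genes of smallest p per list and comparison may be named. The 9 members and the gene lists were chosen with earlier results of these data known. The number of arrays limits the precision.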

Additional observations from a re-analysis of the deposited data

Results flagged for a closer look

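Timp2 in IRI replicate 4 stood apart from its group at 4.13, with the other IRI rats at 3.78, 3.82 and 3.83. Over 48 combinations of member and group checked in this way, chance sets apart about 1 in 20. Plau differed among the acupoint groups, with an F of 4.62 and an adjusted p of 0.0368 by limma.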

How the results depend on the processing

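Each comparison was repeated under 14 other settings and without each array in turn. Among these settings, the 75th percentile over spots was the first choice. The main setting, over probes, replaced it after results under both had been seen. Counts of members called that moved are as follows. With the slide as a random block, whose correlation of -0.22 only the split of Quchi informs, they were 2 in Jiaji against IRI, 3 in Jiaji against sham, 1 in Neiguan against IRI, 3 in Neiguan against sham, 1 in Quchi against sham and 5 among acupoint groups. In Neiguan against sham 2 were called with quantile normalization, the percentile over spots, normexp, the authors' processed values, the stricter filter, the mean of probes, every passing probe, trend and robust, and the replicate block. With normexp these were Timp1 and a lower Timp2, not Plaur. The count in Jiaji against sham stayed at 1 with quantile normalization, median scaling, normexp and the authors' values. In each of them it was a lower Timp2, not Plaur. In Jiaji against sham 0 were called with the mean of probes and 0 in a fit of only the groups compared, as in Yanglingquan against IRI. Among acupoint groups 0 were called with quantile normalization and the authors' values, 4 with median scaling, and 2 with the percentile over spots, the mean of probes, every passing probe or no sex term; with normexp the 1 called was Timp3, not Plau. With the replicate block 0 were called there, and between the sexes 1 was called with trend and robust. Replicate numbers did not pair the arrays: 60 same-numbered pairs correlated at -0.4 to 0.44 (median -0.02), and 5 of 24 arrays were closest to their own number.

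Without 1 array, the count of members called ran from 0 to 2 in Jiaji against IRI, 1 to 2 in Jiaji against sham, 0 to 1 in Neiguan against IRI, 0 to 3 in Neiguan against sham, 0 to 1 in Quchi against sham, 0 to 1 in Yanglingquan against IRI, 0 to 2 among acupoint groups and 0 to 1 between the sexes, and was 0 in the 4 other comparisons. Mmp13, not well above background on any Yanglingquan array, had fitted differences from sham there of -0.54 (adjusted p = 0.0497) and, with the authors' processed values, 0.24 (0.549), so its direction is not settled. Under median scaling the all-gene median shifted by -0.22 in Jiaji against IRI, -0.27 in Jiaji against sham, -0.14 in Neiguan against sham and 0.12 in Yanglingquan against IRI. Of all genes called in Jiaji against sham, 2252 were higher and 844 lower, against 1548 and 2187 with quantile normalization and 1641 and 5223 with median scaling; in Neiguan against sham these were 1612 and 953, 1441 and 2022, and 1381 and 2946. The cause was not tested. Probes near background, Mmp9 and Mmp3 among them, limit what these arrays show.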
